A study of Mus musculus with 6 samples.

Results

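The clustered protocadherin genes are a run of cell-surface receptor genes on mouse chromosome 18, and their chromatin accessibility was read in kidney by ATAC-seq, in which the transposase Tn5 inserts adapters into open chromatin. Members were the protein-coding genes of the GENCODE M39 annotation on this chromosome whose symbols place them in the alpha, beta or gamma cluster. The rule gave 58 of 21757 protein-coding genes, with 14 in the alpha, 22 in the beta and 22 in the gamma cluster. Peak intervals were taken within 1 kb of any transcription start site of a member or elsewhere between the first and the last member, which gave 67 of 279569 intervals. Each interval carried the fold enrichment and the −log10 q of its highest summit. Fold enrichment here is the height of the read pileup relative to the background, and q is the p-value of the peak caller adjusted over the genome.

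The libraries came from kidneys of WT mice (n = 3) and of Acly cKO mice (n = 3). ACLY makes acetyl-CoA, the donor for histone acetylation, from citrate. Acly cKO mice carried floxed Acly alleles and Ksp-Cre, whose Cdh16 promoter drives Cre in kidney tubule epithelium, and their WT littermates carried the floxed alleles without Cre. Per the labels the treatment was Control in every sample, and per the methods the tissue was cortex, in which cells other than tubule cells keep Acly. The labels place WT libraries in batches 1 and 2 and Acly cKO libraries in batches 4 and 5, so a difference of batch and one of genotype cannot be told apart. The peak list is a single call on pooled libraries with no column for a library or a genotype, and which libraries were pooled is not given in the sources used here. No comparison of the genotypes and no replicate error could therefore be computed, and every value below describes the pool.

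Clustered protocadherins are cadherin-like receptors that bind like to like across cell contacts, and they are best known from neurons, where each cell uses a few members chosen by promoter and thereby carries a surface identity. In the alpha and gamma clusters every member has its own promoter and a long variable first exon that encodes the extracellular domains, the membrane-spanning segment and the start of the cytoplasmic tail. That exon is spliced to short constant exons shared by the whole cluster. The beta genes have a single coding exon and no constant exons. The C-type members at the end of the alpha and gamma clusters are diverged and are not chosen in the same random way in neurons. In neurons CTCF and cohesin loop a chosen promoter to distant enhancers.

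In the canonical transcripts all 14 alpha and all 22 gamma members had 4 exons and all 22 beta members had 1. The 3 shared exons of the alpha cluster began at 37289208, 37292318 and 37317999 on chromosome 18 of GRCm39 (mm39). Those of the gamma cluster began at 37958074, 37966318 and 37972956. All members lie on the plus strand, and all positions below are on this build.

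The clusters differed in how many of their start sites held an interval. The gamma cluster had one at 20 of 22 members (90.9%), the alpha cluster at 4 of 14 (28.6%) and the beta cluster at 6 of 22 (27.3%). Over the 58 members the count was 30, or 51.7%, where 77.9% of all protein-coding genes had an interval by the same rule. With no further limit on q or fold enrichment, the gamma share lay above this background and the alpha and beta shares below it. The 30 members held 32 distinct start-site intervals, and no interval was shared by 2 members. Since the tissue was taken in bulk, accessibility in few nuclei and weak accessibility in many cannot be told apart.

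Gamma kept the highest counts under stricter peak limits. At q under 1e-05, 18 gamma, 3 beta and 1 alpha members kept a start-site interval, beside 74.9% of all protein-coding genes. At a fold enrichment of at least 5, 11 gamma members (Pcdhgc5 by an intronic summit), Pcdhb1 and Pcdhac2 were left. That is 13 of 58 members beside 69.0% of all protein-coding genes. At this limit gamma too, with 11 of 22 members, lay below the background. Among members with an interval the median fold enrichment was 5.53 in gamma, 2.42 in beta and 2.10 in alpha. The median over all 16946 protein-coding genes with an interval was 30.8, so that accessible members mostly sat low in the distribution of gene starts. The lowest fold enrichment in the whole list was 1.70, and a member without an interval is one whose pileup did not reach a called peak.

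**Figure D1:**
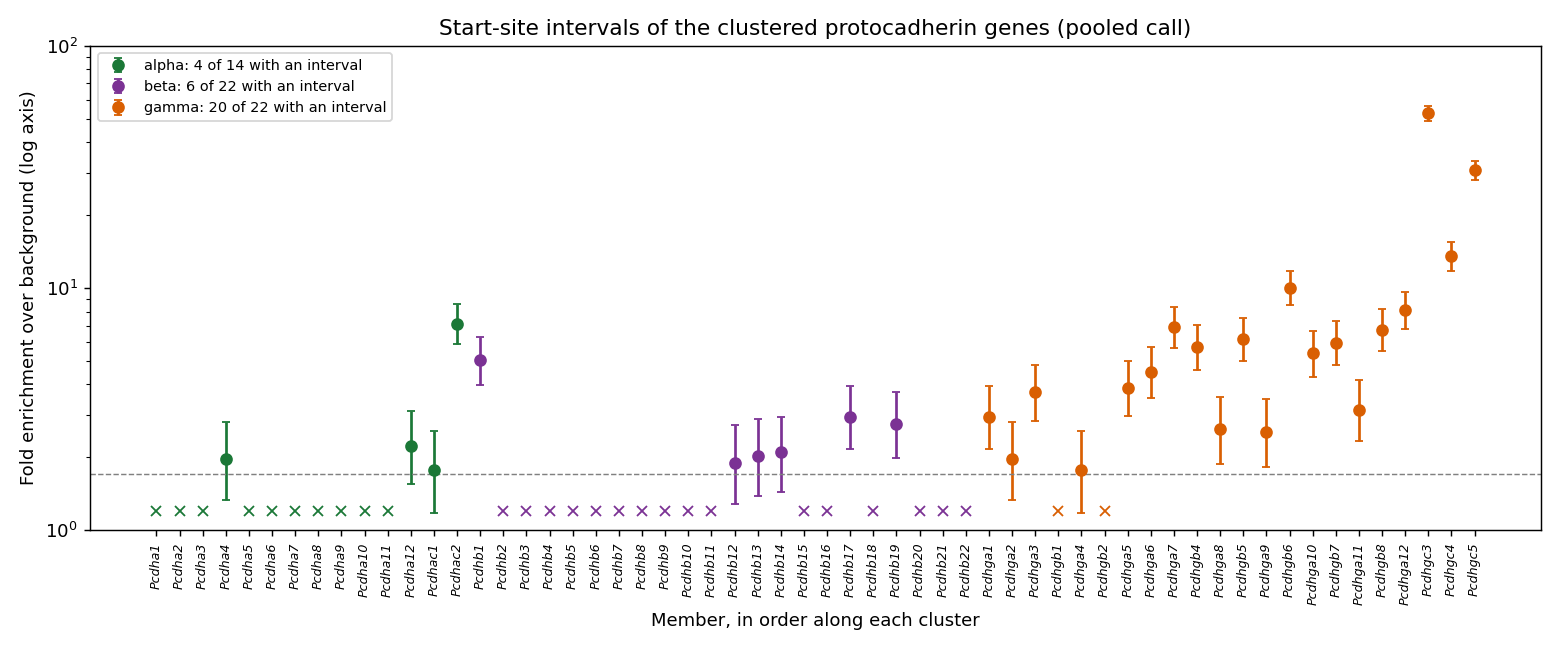
Fold enrichment over background (log axis) of the strongest interval within 1 kb of a start site, for each member in order along its cluster. Points carry 95% counting intervals, crosses mark members without an interval, and the dashed line is the lowest fold enrichment in the list, 1.70. Values are scattered and low in alpha and beta and are highest among the C-type members at the end of gamma, where Pcdhgc3 reaches 52.6. The point of Pcdhgc5 is an intronic summit.

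The fold values of the 67 intervals, and those of all summits under 20-fold in the list, were whole multiples of 0.0655. Steps of equal size would follow from a constant background with each step equal to 1 read. Read that way, and after taking off the 1 read that the caller adds to each pileup, the lowest listed summit stands for 25 reads and the summit of Pcdhgc3 for 803. Exact Poisson 95% intervals on those reads are given below in square brackets. They cover counting error in the pool only and say nothing of the spread between mice. In the order of the 30 members by fold enrichment, 26 of 29 neighbouring pairs had overlapping intervals. The 3 highest members, Pcdhgc3, Pcdhgc5 and Pcdhgc4, each stood clear of the next.

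The strongest member intervals were those of the gamma C-type genes, and in the case of Pcdhgc5 the value comes from an intron. Pcdhgc3, the C-type gene of the gamma cluster that comes first in order, had 52.6-fold enrichment [49.1 to 56.4] with a −log10 q of 1063 at chr18:37938183-37942566. Its summit lay 89 bases before the start site, where an exon of another gene, BC037039, is annotated. It was stronger than 98.9% of all intervals and than 78.8% of the protein-coding genes with an interval, and it was the sole member above the median of those genes. The same interval held 7 lower summits in the first exon, between 3.80- and 6.02-fold.

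Pcdhgc4, whose product is known for the survival of inhibitory neurons, had 13.6-fold enrichment [11.8 to 15.5] at chr18:37946083-37950026. Here the signal was broad. The summit 190 bases before the start reached 13.6-fold, and summits at 226 and 451 bases after it reached 12.8- and 13.5-fold. The remaining summits in the first exon lay between 2.29- and 5.17-fold.

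Pcdhgc5 had 30.6-fold enrichment [27.9 to 33.5] at chr18:37952054-37960038, an interval 7985 bases wide with 22 summits. This value does not belong to the start site. The strongest summit lay 3134 bases after the start, in the first intron, and 2 further summits of 10.3-fold lay at 5540 and 5908 bases, on and just past the exon 2 that all gamma transcripts share. Within 1 kb of the start site the highest summit was 2.95-fold, and the summits in the first exon lay between 1.90- and 2.95-fold. Taken at its start site, Pcdhgc5 ranked with the weaker gamma members and not with Pcdhgc3.

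In the alpha cluster the 2 C-type genes were far apart. Pcdhac2 had 7.14-fold enrichment [5.87 to 8.60] at chr18:37275764-37278245, with 7 summits between 3.40- and 7.14-fold at offsets from −327 to 953 bases of the start. Pcdhac1 had 1.77-fold [1.18 to 2.56] at chr18:37222791-37223060, just above the limit of the list. The Pcdhac1 and Pcdhac2 intervals did not overlap on the fold scale.

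The other alpha members form the run that neurons choose from at random, and 2 of these 12 held a start-site interval. Pcdha12 had 2.23-fold enrichment [1.55 to 3.10] at chr18:37153315-37153760 and Pcdha4 had 1.96-fold [1.34 to 2.79] at chr18:37085656-37086308. The 2 could not be told apart within counting error. The members without an interval were Pcdha1, Pcdha2, Pcdha3 and Pcdha5 to Pcdha11, which is 10 of the 14 alpha genes.

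In the beta cluster the strongest start site was that of Pcdhb1, the first and most diverged beta gene, which stands apart upstream of the others. It had 5.04-fold enrichment [3.99 to 6.29] at chr18:37397528-37398801, with the summit 171 bases after the start. Pcdhb17 had 2.95-fold [2.16 to 3.93] at chr18:37617862-37618249 and Pcdhb19 had 2.75-fold [1.99 to 3.71] at chr18:37629966-37630466. Pcdhb12, Pcdhb13 and Pcdhb14, which are adjacent genes, lay between 1.90- and 2.10-fold. The interval of Pcdhb1 lay above that of Pcdhb17, and the remaining 5 overlapped one another. No interval was found at the starts of Pcdhb2 to Pcdhb11, Pcdhb15, Pcdhb16, Pcdhb18 and Pcdhb20 to Pcdhb22.

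The gamma A and gamma B genes alternate along the gamma cluster and encode receptors that differ in sequence type. All 12 gamma A members had a start-site interval, with a median of 3.44-fold and a range of 1.77 to 8.12. Of the 7 gamma B members, 5 had one, with a median of 6.15-fold and a range of 5.70 to 10.0. At a fold enrichment of at least 5 there were 3 of 12 gamma A and 5 of 7 gamma B members, beside 69.0% of all protein-coding genes. Pcdhgb6 was the strongest B gene with 10.0-fold [8.50 to 11.7] at chr18:37874848-37876072, and Pcdhga12 the strongest A gene with 8.12-fold [6.76 to 9.67] at chr18:37898820-37900208. The lowest was Pcdhga4 with 1.77-fold [1.18 to 2.56]. Pcdhgb1 and Pcdhgb2, the B genes nearest the front of the cluster, were the gamma members without an interval.

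Values differed along the gamma cluster. Among the first 7 gamma members, Pcdhga1 to Pcdhga5 with Pcdhgb1 and Pcdhgb2 between them, 5 had an interval and none reached 5-fold, with a highest value of 3.86. Among the next 12, Pcdhga6 to Pcdhga12, all had an interval and 8 reached 5-fold, with a median of 5.83. The last 3 were the C-type genes, with 52.6-fold at Pcdhgc3, 13.6-fold at Pcdhgc4 and, within 1 kb of its start, 2.95-fold at Pcdhgc5, after a gap of 40.8 kb between the starts of Pcdhga12 and Pcdhgc3. These runs were drawn after the values were seen. Within the middle run the order was not smooth, since Pcdhga8 (2.62-fold), Pcdhga9 (2.55-fold) and Pcdhga11 (3.14-fold) lay between stronger B genes.

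Start-site intervals were chosen within 1 kb of an annotated start, which limits how far they lie from it. Distances over all protein-coding genes were not counted, so those below have no background. The highest summit lay a median of 38 bases after the annotated start and was within 250 bases in 25 of 30 members. The other 5 included Pcdhgc5 at 3134 bases, Pcdhac2 at 396 and Pcdhga12 at 324. The medians were 217.5 bases in alpha, 131 in beta and 12.5 in gamma. The sign of the read shift used in peak calling is not clear from the methods, so offsets of this size are not resolved further. Widths had medians of 549.5 bases in alpha, 348 in beta and 603.5 in gamma. Pcdhgb5 and Pcdhgb7 each had a second interval, 872 and 842 bases after the start, at 2.10- and 1.90-fold.

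**Figure D2:**
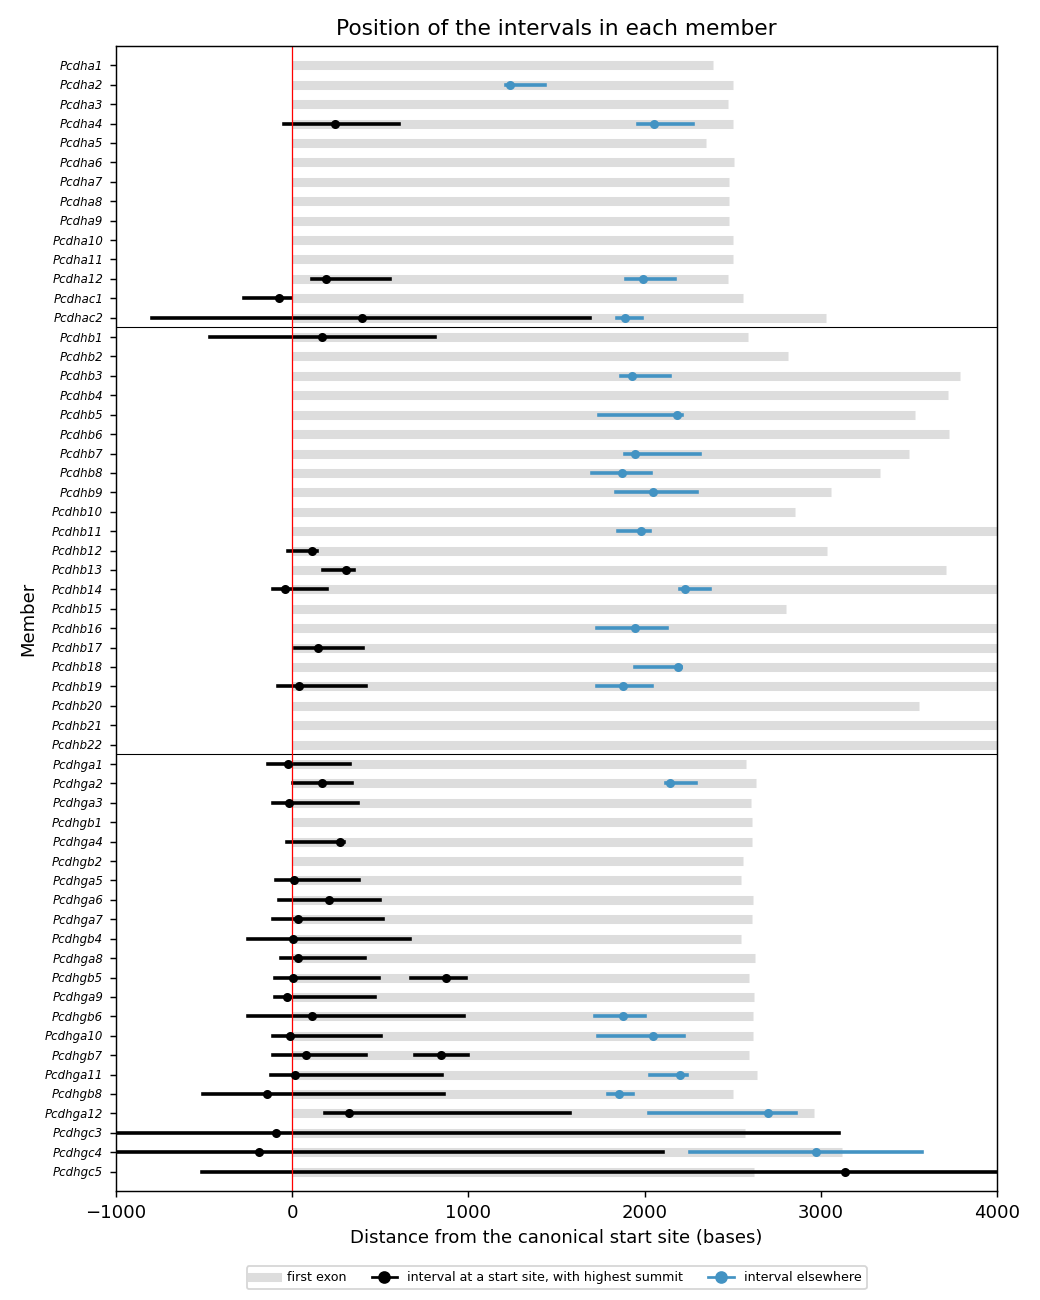
Intervals in each member by distance from its canonical start site in bases, with members from alpha at the top to gamma at the bottom. Grey bars are first exons, black lines and points are start-site intervals and their highest summits, and blue ones are separate intervals. Of the 21 blue points 18 lie between 1700 and 2500 bases, while most black points lie within 250 bases of the start.

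Of the 67 intervals in the span, 35 lay away from a member's start site, and 21 of those had their summit in a member's variable first exon. These were 10 in beta, 7 in gamma and 4 in alpha genes. Their fold enrichment was low, 1.70 to 3.93 with a median of 1.90, and 20 of 21 were under 2.5-fold. Low values were common in the whole list, where the median over all intervals was 2.55. The exon interval of Pcdhgc4, at 2.42-fold, was stronger than 45.1% of all intervals. Their position was alike from gene to gene, but the selection left little room for it to differ in alpha and gamma. A separate interval lies more than 1 kb from any member's start. The first exons had median lengths of 2490 bases in alpha, 2609.5 in gamma and 3714 in beta. Of the 21 summits 18 lay 1700 to 2500 bases after the start, and the 10 beta summits lay between 1871 and 2226. Counted from the end of the coding part of the exon, 19 of 21 summits lay within the last 800 bases, with a median distance of 539. The share over other genes was not counted for this limit, so it has no background. The strongest beta ones were Pcdhb7 at chr18:37476641-37477068 with 2.16-fold, Pcdhb3 at chr18:37435716-37435996 with 2.10-fold and Pcdhb9 at chr18:37535747-37536202 with 2.10-fold. The strongest of all was Pcdhga12 at chr18:37900659-37901493 with 3.93-fold [3.01 to 5.05], where the lncRNA Gm26672 starts 29 bases away.

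Of the 10 beta genes with an exon interval, 8 had no interval at the start, as did 8 of the 12 beta genes without an exon interval. All 7 gamma genes with an exon interval also had one at the start, where 20 of all 22 gamma members had one. Over all members 12 had both, 9 the exon alone, 18 the start alone and 19 neither. The window of 1700 to 2500 bases was set after the positions were seen, so its counts are a description. All 58 members have a first exon of at least 2300 bases, and 18 of them (31.0%) had a separate summit in this window, beside 11.1% of the 485 protein-coding genes with such an exon. The share was 45.5% in beta, 22.7% in gamma and 21.4% in alpha, 8.43% of 427 genes outside the clusters, and 0 of 7 non-clustered protocadherins.

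Base composition differed at that position. The 300 bases around the beta exon summits had a median GC share of 62.5%, against 44.5% for the whole exon, and were richer than the exon in 10 of 10 genes. In gamma the medians were 59.7% and 53.1% (7 of 7 genes), and in alpha 52.5% and 54.2% (2 of 4 genes). The rise was also present in members with no exon interval. In a window 572 bases before the coding end, the 12 beta genes without an exon interval had a median GC share of 61.8% and the 10 with one 62.7%. Over all clusters 55 of 58 members were richer in GC in this window than in the exon as a whole. The part of GC content in these intervals was not tested.

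**Figure D3:**
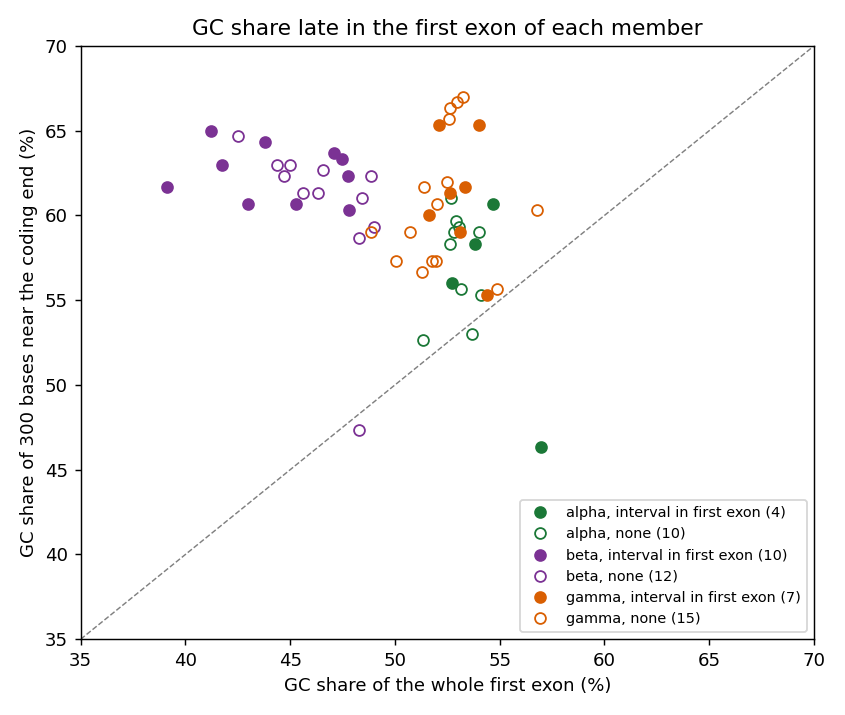
GC share (%) of 300 bases centred 572 bases before the coding end of the first exon, against the GC share (%) of the whole first exon, for each of the 58 members. Filled points have a separate interval in that exon and open points do not. Nearly all points lie above the line of equal share, and filled and open beta points overlap.

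Away from start sites and first exons, 14 intervals remained. In the alpha cluster the strongest were chr18:37305357-37305689 with 4.78-fold [3.75 to 6.002] and chr18:37311174-37311918 with 4.71-fold [3.70 to 5.93]. Both lie in the intron between the second and the last shared alpha exon and in annotated exons of the lncRNA Gm10544, with summits 170 bases and 1 base from a start site of it. Next, with the first exons included, came those of Pcdha4 at chr18:37087660-37087974 and Pcdha12 at chr18:37155093-37155376, tied at 2.16-fold.

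Between the alpha and beta clusters, chr18:37350869-37351623 had 13.5-fold enrichment [11.7 to 15.5], above every alpha and beta start site. Its summit lay 30.7 kb past the alpha cluster and 46.6 kb before Pcdhb1, in an exon of Gm58416. It was 1 of 3 intervals, of 67 in the span, with a CTCF core consensus match in the 300 bases around the summit. Of all intervals, 5.28% had such a match. The neighbouring interval chr18:37350233-37350560 had 2.68-fold.

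In the gamma cluster 6 intervals followed the shared exon 2, between 1.77- and 6.22-fold. The strongest was chr18:37968058-37972092 with 6.22-fold [5.04 to 7.60], in the intron before the last shared exon. Next was chr18:37972363-37976673 with 5.43-fold [4.34 to 6.73], whose summit lay in that last exon, held by every gamma transcript, and had a CTCF consensus match. The third match was in the second interval of Pcdhgb7. Between beta and gamma, the 64.9-fold interval chr18:37775621-37778756 lay at the start of Taf7, a general transcription factor subunit gene that is no protocadherin. An 8.45-fold interval lay at chr18:37788558-37789311 near the start of Gm58737.

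**Figure D4:**
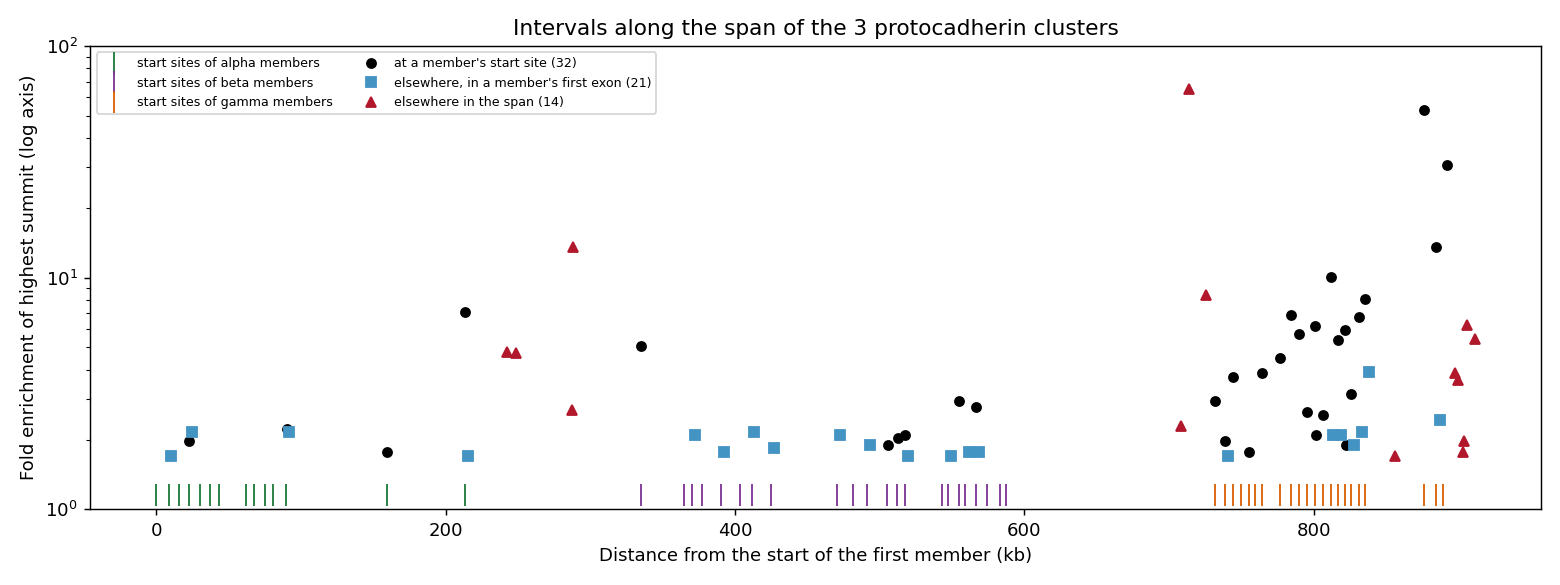
Fold enrichment of the highest summit (log axis) of the 67 intervals by distance in kb from the start of the first member. Circles are intervals at a member's start site (32), squares those in a first exon (21) and triangles the others (14), and ticks at the bottom are start sites. Alpha and beta are thinly filled, with highest values of 7.14-fold (Pcdhac2) and 5.04-fold (Pcdhb1), stronger than 82.5% and 75.5% of all intervals. The strongest triangle at 64.9-fold is the Taf7 start, and gamma is densely filled.

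Gamma also had the most sequence covered. The gamma span had 36 intervals over 180 kb, or 19.98 per 100 kb, with 23.05% of its bases covered. The alpha span had 10 over 257 kb, or 3.88 per 100 kb (2.29% covered), and the beta span 16 over 260 kb, or 6.16 per 100 kb (2.18% covered). The whole chromosome was at 9.44% and the genome at 9.22%, so alpha and beta lay below both and gamma above. The widest gamma intervals, of 7985, 4384, 4311, 4035 and 3944 bases, all lay from Pcdhgc3 onward, so the gamma share was not evenly spread. The flanks were denser still, with 28.3% of the 500 kb before and 39.9% of the 500 kb after the clusters covered.

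Promoter sequence set the members apart from other genes. In the 300 bases from 250 before to 50 after the canonical start, the median GC share was 39.8% in members and 54.3% in all protein-coding genes. The ratio of observed to expected CpG was closer, with medians of 0.538 and 0.517. Within the members, C-type promoters had a median GC share of 54.7% and Pcdhgc3 had 63.0%. The median was 42.2% in the 30 members with a start-site interval and 38.0% in the 28 without. Over all protein-coding genes these medians were 57.3% and 43.7%. The median CpG ratio was 0.549 and 0.515 in members with and without an interval, and 0.642 and 0.142 over all protein-coding genes. Across the 58 members, with those lacking an interval ranked lowest, Spearman's rho of fold enrichment with GC share was 0.42 and with CpG ratio −0.02. These values come from a single pool and serve as a description.

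The letters GGGCGG, the GC box bound by Sp1 and related factors, were found on either strand in 3 of 58 member promoters, those of Pcdhac1, Pcdhac2 and Pcdhgc3, or 5.17% beside 42.5% of all protein-coding promoters. All 3 are C-type genes with an interval, at 1.77-, 7.14- and 52.6-fold. The letters TATAAA on either strand were in 12 members (20.7%), beside 13.2% of all promoters, and 5 of the 12 had a start-site interval.

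The core consensus of CTCF, searched on both strands with up to 1 mismatch in 14 bases, was in 0 of 58 member promoters of 300 bases, beside 2.76% of all. Sites with more than 1 mismatch are missed by this search, so a promoter without a match may still hold a CTCF site. Within 1 kb of the start it was in 9 of 14 alpha members (64.3%), 0 of 22 beta and 1 of 22 gamma members, beside 8.67% of all protein-coding genes. The 9 alpha matches all lay 456 to 581 bases after the start, inside the variable exon, and the gamma match lay 836 bases after the start of Pcdhgb7. Of the 9 alpha genes with a match, Pcdha4 and Pcdha12 had a start-site interval and 7 had none, where 4 of all 14 alpha members had one. No first-exon summit (0 of 21) had a match in its 300 bases, and 5.28% of all intervals did. Antisense lncRNAs were annotated to start within 1 kb of 3 alpha, 0 beta and 3 gamma members. The share over all protein-coding genes was not counted, so these counts have no background.

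Reads were kept only where they mapped uniquely, and the members are related in sequence, so repeated sequence was counted. Of the 50-base words within 1 kb of the start, a median of 91.9% occurred once in the genome for alpha, 100% for beta and 99.8% for gamma. The lowest member was at 82.1%. Members with an interval had a median of 100% and those without 93.8%. Pcdhgb1 and Pcdhgb2 were fully unique around the start, though 72.3% and 70.4% of words were unique in the rest of their first exons. The part of repeated sequence in the missing intervals was not tested.

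Other genes placed these values. Left out were 3 long readthrough genes annotated across the clusters, of which Gm38666 and Gm37388 had no start-site interval. All 32 other protein-coding genes in the span or within 500 kb of it had a start-site interval, with a median of 45.3-fold. The highest were Ankhd1 (106-fold), Diaph1 (78.0-fold) and Taf7 (64.9-fold). Some of the 32 share an interval, such as Hdac3, Fchsd1 and Rell2 (40.8-fold). Pcdh1 and Pcdh12 count here and in the next group. All 11 non-clustered protocadherins, which lie outside these clusters, also had a start-site interval. Their median was 22.3-fold, with a range from 3.73 at Pcdh20 to 58.0 at Pcdh17. Pcdh10 was at 41.6-fold and Pcdh19 at 36.0-fold. Of the members, Pcdhgc3 and the intronic summit of Pcdhgc5 alone exceeded the median of that group.

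Genes for the machinery that acts on protocadherin promoters were all accessible. The 11 regulators, among them CTCF, the cohesin subunits and the silencing factors DNMT3B, SETDB1 and SMCHD1, had a median of 46.3-fold. They were led by Wapl (75.7-fold), Stag1 (74.2-fold) and Smchd1 (70.9-fold), and Ctcf was at 36.3-fold. The Stag1 interval lay inside the gene at an internal annotated start. The 10 intracellular partners, kinases of the focal adhesion family and subunits of the WAVE complex that act on actin, had a median of 44.8-fold, led by Cyfip1 (71.2-fold), Abi1 (53.9-fold) and Nckap1 (53.2-fold).

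**Figure D5:**
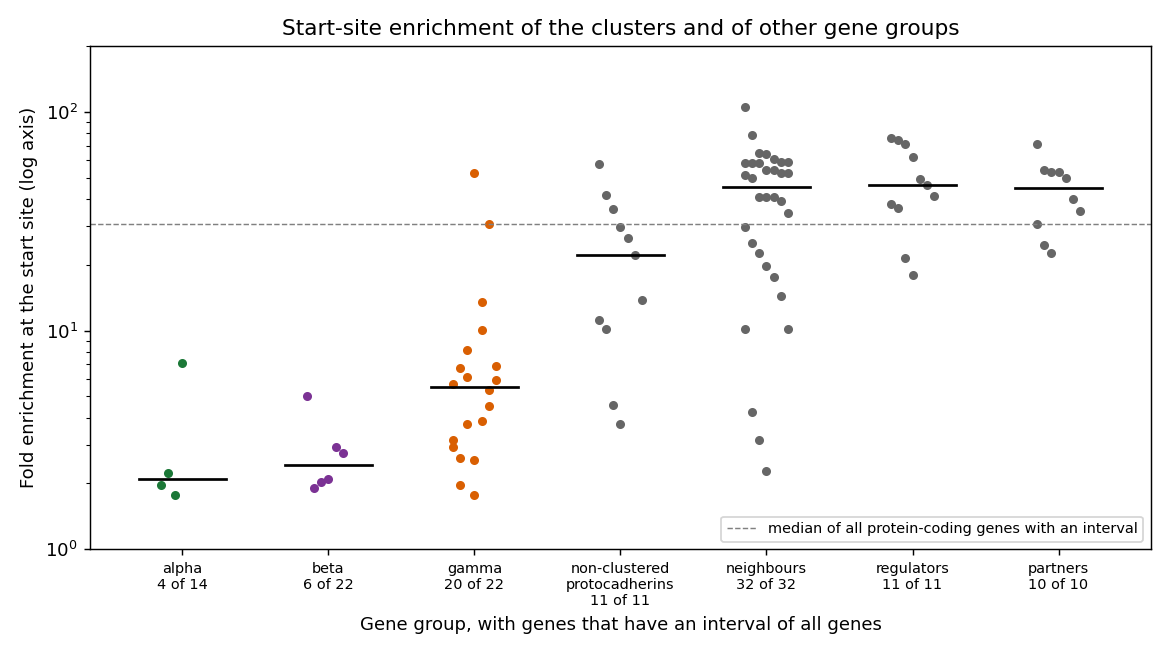
Fold enrichment at the start site (log axis) of each gene with an interval, for the 3 clusters and 4 other gene groups, with the number of genes with an interval of all genes under each name. Bars are group medians and the dashed line is the median of all protein-coding genes with an interval, 30.8. The medians of alpha (2.10), beta (2.42) and gamma (5.53) lie below those of the other groups.

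The tissue label was checked on markers of kidney cell types. All 24 had a start-site interval, between 1.96- and 38.2-fold with a median of 9.79. The highest were Slc12a3 of the distal tubule (38.2-fold), Lrp2 of the proximal tubule (33.1-fold) and Cd68 of macrophages (31.2-fold), and the lowest was the leukocyte gene Ptprc (1.96-fold). The 7 neuron and glia markers also all had one, with a median of 8.05-fold from Sox10 (2.42-fold) to Snap25 (24.6-fold), so an interval at a start site did not separate these cell types. The intervals of Slc12a3, Ptprc and Snap25 lay inside the gene at an internal annotated start, far from either gene end. Those of Hnf4a, Csf1r, Pecam1, Rbfox3, S100b and Nphs1 also lay inside the gene and reached neither gene end. The part of nerve or other non-tubule nuclei in the protocadherin intervals was not tested.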

How the data were processed

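The labels list 3 WT and 3 Acly cKO kidney samples, on which the authors performed ATAC-seq. Per the methods, reads were trimmed (fastp) and aligned by the authors to mm39 (Bowtie2 2.3.4.3), duplicates and multiply mapped reads were dropped, peaks were called (MACS3 3.0.0; extsize 200, shift 100, q limit 0.05), and peaks in blacklisted regions or outside the standard chromosomes were taken out (BEDTools 2.29.1). The deposited peak list gives fold enrichment, a linear ratio to the background, and −log10 q per summit, both from the authors' caller, with the summit's offset in the interval. The methods name further WT datasets that were deposited earlier. Whether the pooled call includes them is not given in the sources used here, so the pool may hold more WT than Acly cKO libraries. Depth per library is unknown from these values.

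Rows with the same chromosome, start and end were joined into 1 interval, represented by its highest summit by q. Start sites came from 481834 GENCODE M39 transcripts. All 727147 summits under 20-fold and the 67 intervals of the span lay within 0.00085 of a whole number of steps of 0.0655, and each of 1549 distinct fold values had a single q, so both columns rank summits alike. In the span, 184 summits stood before and after the authors' filtering. Analyses used Python 3.11.15, pandas 2.3.3, numpy 2.4.6, scipy 1.17.1, numba 0.67.0 and pysam 0.24.0. Scripts were tested on simulated data and recovered 500 of 500 planted consensus sites. No test was run, since there was a single pooled call. The 3 readthrough genes that span the clusters were left out of the neighbouring genes.

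Full values are given for the 3 members of each cluster with the highest −log10 q at the start, the 5 C-type members, Pcdhb1, members without an interval, the 3 strongest intervals of each cluster away from start sites, and the 3 highest genes of each list. Members and lists were chosen with earlier results of these data known. Other members and intervals named were chosen after their values were seen. No member sequences are printed.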

Additional observations from a re-analysis of the deposited data

How the results depend on the processing

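No paired analysis was possible because the libraries were pooled before peak calling, and no replicate could be left out. The counts and medians of the 3 clusters were recomputed under other peak limits, distances, start sites and summit choices, and 40 values stayed within the set margins while 18 moved.

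At q under 1e-05 the start-site counts fell to 1 in alpha and 3 in beta, and the alpha median became 7.14. At a fold enrichment of at least 5 they were 1, 1 and 11 in alpha, beta and gamma, with medians of 7.14, 5.04 and 6.87. Widening the distance to 2 kb took the beta count from 6 to 14, since it then takes in exon intervals. Without the C-type members, an alternative chosen after seeing the data, alpha had 2 members with an interval, while gamma had 17 of 19 with a median of 4.52. Intervals away from start sites went from 6 to 2 in alpha and from 14 to 6 in gamma at q under 1e-05, and from 10 to 4 in beta at q under 0.01 and to 0 at q under 1e-05. At 5-fold they were 0 in alpha, 0 in beta and 2 in gamma. Gamma had the highest count and median under each peak limit except the alpha median at q under 1e-05 and at 5-fold, which rests on Pcdhac2 alone.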
